A study of Mus musculus with 17 samples.

Results

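The genes described here are those of the proteins that replace histones on the DNA of mouse spermatids, the transition proteins Tnp1 and Tnp2 and the protamines Prm1 and Prm2, and of Prm3, which lies between Prm2 and Tnp2 in the genome. They were taken by symbol from a gene table keyed by NCBI Gene IDs, and all 5 are among its 24594 genes. RNA had been sequenced from germ cells of adult mouse testis, dissociated with collagenase and trypsin and sorted by flow cytometry into 5 stages with 3 libraries each. LZ stands for leptotene/zygotene spermatocytes, PD for pachytene/diplotene spermatocytes and RS for round spermatids. EES stands for early and LES for late elongating spermatids. All samples are labelled as male wild-type mice of the strain C57BL/6JRj at 3 months of age, and these 15 were stained with the DNA dye Hoechst and with SYTO16. Hoechst alone was used for the other 2 of the 17 libraries. One is titled round spermatids of juvenile mice at 23 dpp (RS23) and the other elongating spermatids sorted on Prm1-EGFP (PrmES). These titles differ from the age and the genotype in the labels of the same libraries. In the gene table the columns of RS23 and PrmES are headed Erkek and those of the other 15 Gill, called library series below. The sources used here give neither the design of the reporter nor whether libraries of a stage came from separate animals. The p-values therefore measure only how these libraries spread, and that spread may be technical.

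During spermiogenesis histones are removed from chromatin while the nucleus elongates, transition proteins take their place for a time, and arginine-rich protamines then pack the DNA into the sperm head. The genes of these proteins are transcribed in round spermatids, and much of the messenger RNA is kept in ribonucleoprotein particles and translated only in elongating spermatids. CREM, a transcription factor of round spermatids, is a known activator of Tnp1 and Prm1 that binds cAMP response elements. Prm3 encodes a small acidic protein, unlike the basic protamines.

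Prm1, Prm2, Prm3 and Tnp2 lie together on the minus strand of chromosome 16 and Tnp1 lies alone on chromosome 1 (RefSeq, GRCm38.p6). Tnp1 (NCBI Gene 21958) spans chr1:73015074-73015899 on the minus strand. In the cluster, Tnp2 (21959) spans chr16:10787935-10788655 and Prm3 (19120) spans chr16:10790508-10790914. They are followed by Prm2 (19119), at chr16:10791377-10792105, and Prm1 (19118), at chr16:10796332-10796823. The cluster is 8889 bases long, with gaps of 1852 bases between Tnp2 and Prm3, 462 between Prm3 and Prm2, and 4226 between Prm2 and Prm1. All 5 genes changed in parallel between most stages, so the 100 bases before each start site are shown, 5′ to 3′ on the coding strand, from RefSeq's promoter table of GRCm38.p6. They cover chr1:73015900-73015999 for Tnp1, chr16:10788656-10788755 for Tnp2, chr16:10796824-10796923 for Prm1, chr16:10792106-10792205 for Prm2 and chr16:10790915-10791014 for Prm3. Capitals mark matches, on either strand, to TGANNTCA (a loose form of the cAMP response element), TATAAA or TATATA.
Tnp1: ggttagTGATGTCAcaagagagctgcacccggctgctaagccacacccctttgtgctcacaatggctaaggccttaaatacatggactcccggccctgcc
Tnp2: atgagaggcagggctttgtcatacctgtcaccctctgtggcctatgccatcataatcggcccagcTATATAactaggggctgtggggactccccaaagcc
Prm1: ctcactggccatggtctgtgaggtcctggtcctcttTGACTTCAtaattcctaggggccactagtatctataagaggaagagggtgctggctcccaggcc
Prm2: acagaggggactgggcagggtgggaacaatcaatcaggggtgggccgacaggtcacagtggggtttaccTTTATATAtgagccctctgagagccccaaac
Prm3: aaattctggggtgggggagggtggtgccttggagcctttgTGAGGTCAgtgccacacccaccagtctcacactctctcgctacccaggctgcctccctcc

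The loose form TGANNTCA stood in the 250 bases before the start of 3 of the 5 genes. It read TGATGTCA at 94 to 87 bases before the start of Tnp1, TGACTTCA at 64 to 57 before Prm1 and TGAGGTCA at 60 to 53 before Prm3. Of the 32817 mouse promoters in the table, 11.94% held it in the same window and 6.338% in the last 100 bases. The full palindrome TGACGTCA was in none of the 5 windows and in 1.548% of all promoters. TATATA stood at 35 to 30 bases before Tnp2 and 29 to 24 before Prm2, and in 5.25% of all promoters. TATAAA, on the reverse strand as TTTATA, was at 31 to 26 before Prm2, where it overlaps TATATA, and in 12.37% of all promoters. AGGTCA, a motif of nuclear receptors, was found before Prm2 at 211 to 206 and 51 to 46, before Tnp2 at 146 to 141 on the reverse strand and, overlapping TGAGGTCA, before Prm3 at 58 to 53. It stood in 14.03% of all promoters. CCAAT was found before Prm3 only, at 150 to 146, and in 33.83% of all promoters. These matches are descriptions of letters and not of bound sites.

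Libraries held 90.6 to 137.8 M (mega) reads over the 5 stages, 159.2 M in RS23 and 149.2 M in PrmES, and genes of the table took 48.4% to 87.7% of them. Levels are given in RPKM, the reads on a gene divided by its exon length in kilobases and by the M reads of the library. The lowest read count behind any value of the 5 genes was 58, for Prm3 in PD replicate 1. The stage labels were checked on 1 marker each. Dmc1, the meiotic recombinase, was at 46.3 to 74.9 RPKM in LZ and 0.104 to 0.132 in PD, and Piwil1, of the pachytene piRNA pathway, at 104 to 127 RPKM in PD. Acrv1, of the acrosome, was at 26.1 to 35.7 RPKM in RS and Odf1, of the sperm tail, at 1475 to 2865 in EES and 2325 to 2592 in LES. A pair of libraries stood apart from the rest of their stage. LZ replicate 3 had 62.5 RPKM of Piwil1 against 6.16 and 9.06 in the other LZ libraries, and EES replicate 2 had 95.2 RPKM of Acrv1 against 3.05 and 8.14. Without this pair the log2 fold changes of the 5 genes were -3.23 to -2.37 from LZ to PD and 5.39 to 7.30 from RS to EES, and they were called in the same comparisons as with it.

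All 5 genes followed one order of levels: lowest in PD, intermediate in LZ and RS, and highest in EES and LES. Tnp1, the main transition protein gene, was at 220.5, 266 and 317 RPKM in the LZ libraries and 23.1, 19.9 and 73.7 in PD. It was at 219, 352 and 530.3 RPKM in RS, 36638, 14671 and 31896 in EES and 34127, 29189 and 26948 in LES. Its PD libraries were all below those of the other stages, its LZ and RS libraries overlapped, and so did EES and LES. The stage means were 268 ± 48.5, 38.9 ± 30.2, 367 ± 156, 27735 ± 11559 and 30088 ± 3673 RPKM (SD, n = 3 here and below). Tnp1 had the highest RPKM of all genes in each of the 6 elongating spermatid libraries.

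Tnp2, the second transition protein gene, ran close to Tnp1. It was at 159.9, 187 and 279 RPKM in LZ, 15.2, 13.3 and 52.2 in PD and 165, 226 and 348 in RS. The elongating libraries had 29067, 10630.0 and 23876 RPKM in EES and 20083, 23574 and 19522 in LES. LZ and RS overlapped again, and PD lay below both. Stage means were 209 ± 62.2, 26.9 ± 21.9, 246 ± 93.3, 21191 ± 9507 and 21060 ± 2196 RPKM from LZ to LES, and the gene ranked 2 to 4 by RPKM in the elongating libraries.

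Prm1, the more widely conserved of the main protamines, was at 165, 200.4 and 268 RPKM in LZ, 13.6, 11.6 and 46.2 in PD and 124, 152 and 234 in RS. It was at 28436, 9452 and 23463 RPKM in EES and 23810.0, 24591 and 23495 in LES. The LES libraries lay close together, whereas EES replicate 2 was well below the other EES libraries. Prm2, whose protein is made as a precursor and trimmed, was at 198, 267 and 359.8 RPKM in LZ, 21.9, 15.1 and 65.4 in PD and 137, 242 and 304 in RS, and then at 26577, 10446 and 23936 in EES and 25434, 25264 and 23841 in LES. Both protamine genes overlapped between LZ and RS and between EES and LES. Mean levels in LES were 23966 ± 564 RPKM for Prm1 and 24847 ± 875 for Prm2, and the genes ranked 3 and 2 by RPKM in each LES library.

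Prm3 was the lowest of the 5 genes in the 5 stages. It was at 11.6, 11.5 and 19.2 RPKM in LZ, 1.28, 1.53 and 5.54 in PD and 25.2, 33.3 and 35.6 in RS. In EES it was at 1376, 665 and 1233 RPKM and in LES at 1111, 1139 and 1125. Prm3 was the only one of the 5 whose LZ and RS libraries did not overlap, with RS the higher. No test was run between LZ and RS for any of the genes. Its LES mean of 1125 ± 13.97 RPKM ranked it 47 to 52 in the LES libraries.

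**Figure D1:**
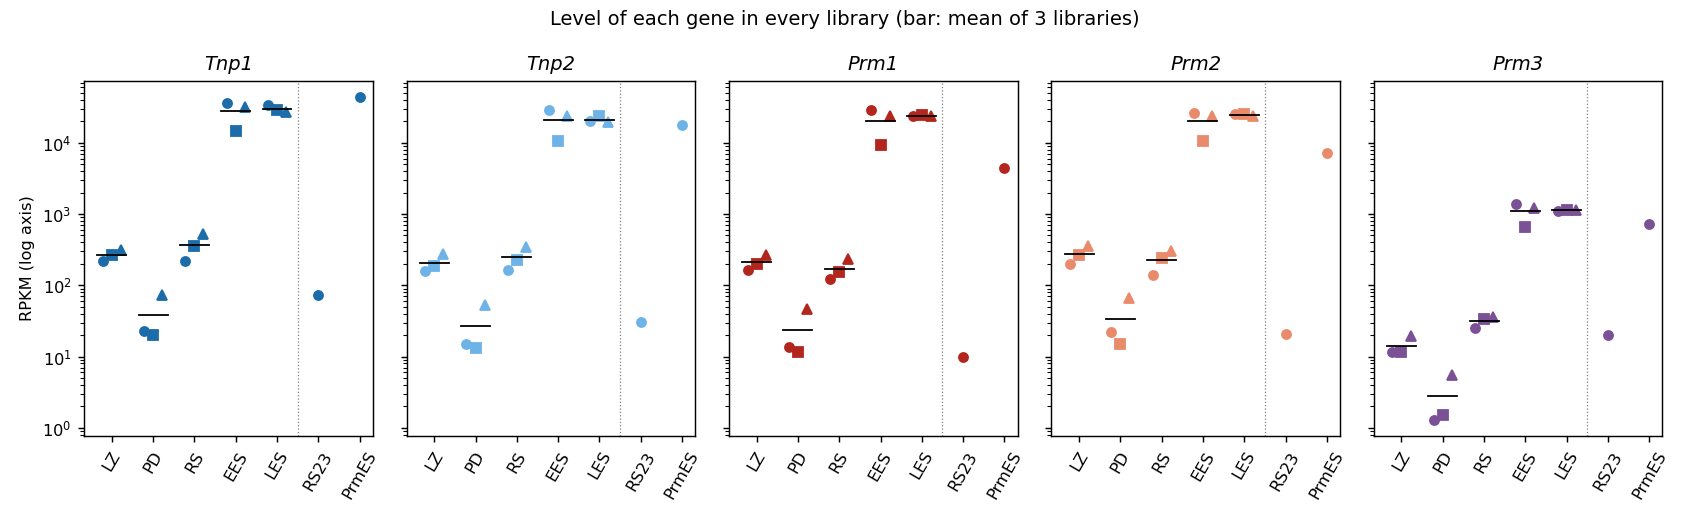
RPKM (log axis) of each gene in every library by stage, with 1 point per library (circle, square and triangle for replicates 1, 2 and 3) and a bar at the mean of the 3 libraries. All 5 genes are lowest in PD and highest in EES and LES, and the single RS23 and PrmES libraries stand to the right of the dotted line.

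As a share of all reads, the 5 genes went from traces to several percent of a library. Together they took 0.0461%, 0.0578% and 0.0776% of the reads of the LZ libraries, 0.00463%, 0.00368% and 0.0148% in PD, and 0.0391%, 0.0596% and 0.0845% in RS. In EES they took 7.27%, 2.73% and 6.25%, and in LES 6.28%, 6.29% and 5.78%. EES replicate 2 was the lowest of the 6 elongating libraries. In sorted bulk samples fewer cells of a type and less RNA per cell cannot be told apart, so these shares are of RNA and not of cells.

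**Figure D2:**
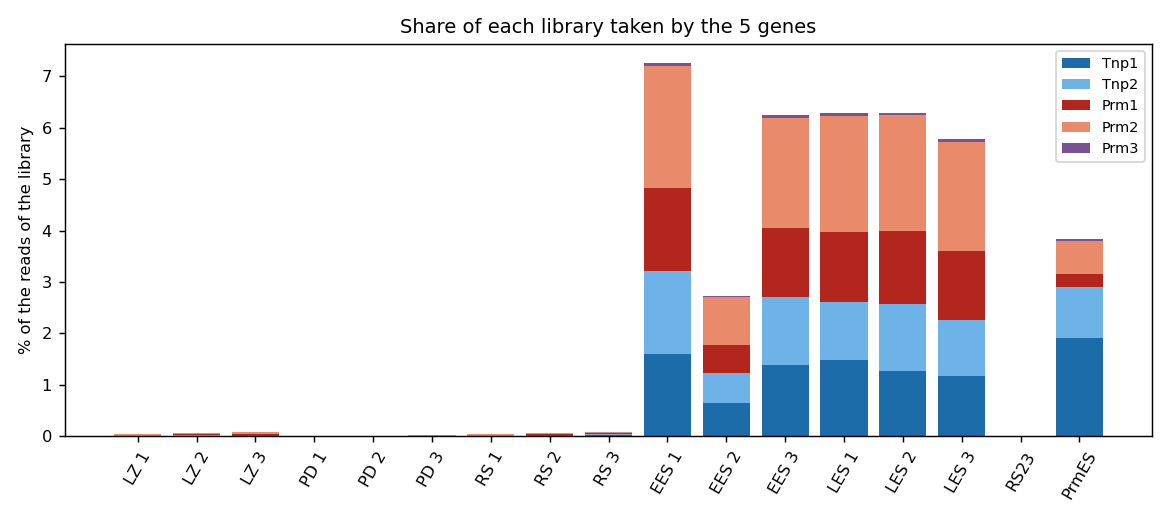
Percentage of all reads of each library that fell in the 5 genes, stacked by gene, on a linear axis from 0. The 6 elongating libraries hold 2.73% to 7.27% and PrmES 3.83%, whereas LZ, PD and RS libraries hold under 0.1%.

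From LZ to PD all 5 genes fell. The log2 fold change was -3.03 ± 0.48 (SE) for Tnp1 and -3.21 ± 0.50 for Tnp2, with adjusted p of 9.13e-05 and 7.64e-05 in limma. For the protamine genes it was -3.42 ± 0.50 for Prm1 (adjusted p 4.40e-05), -3.26 ± 0.51 for Prm2 (7.07e-05) and -2.62 ± 0.46 for Prm3 (0.000203). A gene was called changed where its adjusted p was under 0.05 and its log2 fold change was 1 or more in size. Among all 13260 genes tested 35.8% fell by that rule, and the median log2 fold change was -0.36, against -3.21 for the 5 genes. LZ and PD libraries did not overlap for any of the 5, nor for 81.1% of all genes. PD replicate 3 was the highest PD library for each of the 5 genes, and without it the log2 fold change of Prm1 was -4.04 and that of Tnp1 -3.63. With quantile normalization the values were -4.62 for Tnp1, -5.00 for Tnp2 and -5.21 for Prm1, over 1.5 times those above.

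The elongating spermatid markers that are not among the 5 genes moved the same way from LZ to PD. Of 14 such markers 13 were tested, and 12 fell and 1 rose. Set against the LES mean of each gene, the 5 genes stood at a median of 0.759%, 0.888% and 1.32% in the LZ libraries and the 14 markers at 1.07%, 1.28% and 1.77%. In PD the medians were 0.0767%, 0.0632% and 0.248% for the 5 genes and 0.170%, 0.172% and 0.473% for the markers. PD replicate 3 was the highest PD library in both lists. Markers of Sertoli cells, the somatic cells of the tubule, also fell: 15 of them summed to 76.4 to 156 RPKM in LZ and to 1.76 to 2.78 in PD, and 8 of the 8 tested fell. Up to 2 of the 15 were at 0 in a PD library, and none in LZ. The 3 tested erythroid markers fell too, from 1.45 to 2.85 RPKM summed in LZ to 0.197 to 0.420 in PD, with up to 1 at 0 in PD, though 2 of them after median centring and 1 after quantile normalization. The part of these markers in the result was not tested.

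**Figure D3:**
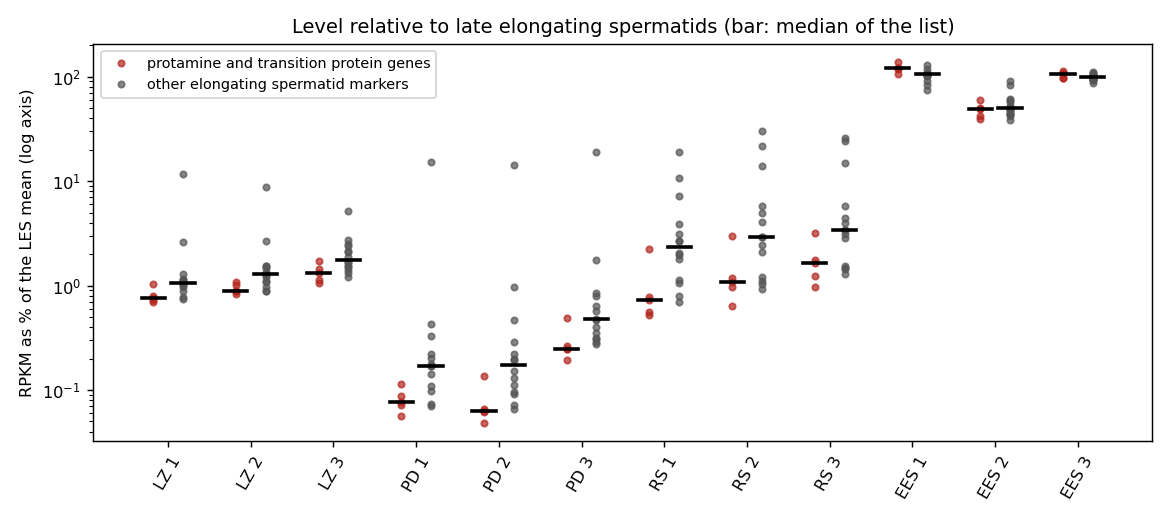
Level of each of the 5 genes and of 14 other elongating spermatid markers in each LZ, PD, RS and EES library, as a percentage of the gene's mean in LES (log axis, zeros not drawn), with a bar at the median of the list. Both lists are near 1% in LZ, lower in PD and near 100% in EES except in EES replicate 2, where the medians are 48.8% and 50.02%.

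From PD to RS all 5 genes rose. The log2 fold change was 3.41 ± 0.48 for Tnp1 (adjusted p 6.62e-05 in limma), 3.42 ± 0.50 for Tnp2 (8.83e-05) and 3.08 ± 0.50 for Prm1 (0.000206). It was 2.96 ± 0.51 for Prm2 (0.000304) and 3.80 ± 0.46 for Prm3 (1.70e-05). Without PD replicate 3 the values were 4.01 for Tnp1, 4.05 for Tnp2, 3.71 for Prm1, 3.57 for Prm2 and 4.46 for Prm3. This comparison shares its PD libraries with the one before. Of all genes 23.4% rose and the median log2 fold change was 0.02, against 3.41 for the 5. PD and RS libraries did not overlap for any of the 5, nor for 72.9% of all genes. In RS the 5 genes stood at a median of 0.729%, 1.08% and 1.65% of their LES means, below the medians of the other elongating markers at 2.34%, 2.90% and 3.39%, and 12 of the 13 tested markers rose from PD. The part of these markers in the result was not tested.

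The largest step was from RS to EES, where all 5 genes rose between 33.5-fold and 113-fold. Prm1 had a log2 fold change of 6.82 ± 0.50 (adjusted p 1.94e-07 in limma), the highest of the 5. With quantile normalization Tnp1 was higher, at 4.92 against 4.79. That method sets values by rank, and in EES Tnp1 ranked 1 and Prm1 3 to 4, so it cannot say which rose more. Prm2 rose by 6.44 ± 0.51 (adjusted p 2.81e-07), Tnp2 by 6.37 ± 0.50 (2.88e-07) and Tnp1 by 6.22 ± 0.48 (2.72e-07). Prm3 rose by 5.07 ± 0.46 (8.85e-07). Of all genes 15.8% rose and 54.9% fell, with a median log2 fold change of -1.42. With each library centred on its median gene, the numbers that rose and fell were 4306 and 3715 in place of 2096 and 7286, and the 5 genes still rose. The groups did not overlap for any of the 5, nor for 76.3% of all genes. All 13 tested elongating markers rose too. Of 8 tested Sertoli markers 7 rose and 1 fell, from 5.29 to 6.79 RPKM summed over the 15 in RS to 10.1 to 31.7 in EES, with up to 2 of the 15 at 0 in an RS library and up to 1 in EES. The 3 tested erythroid markers rose as well, from 0.242 to 0.533 RPKM summed in RS to 1.17 to 3.95 in EES, with none at 0 in either stage. The part of these lists in the result was not tested.

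Between EES and LES no change was detected. The log2 fold changes were 0.22 for Tnp1, 0.11 for Tnp2, 0.38 for Prm1, 0.40 for Prm2 and 0.11 for Prm3, with adjusted p of 0.898 to 0.972 in limma. The 95% intervals reached from -0.83 to 1.26 for Tnp1, from -0.98 to 1.19 for Tnp2, from -0.71 to 1.46 for Prm1, from -0.69 to 1.49 for Prm2 and from -0.88 to 1.11 for Prm3. No member of the group had an unadjusted p under 0.05, as 919 of all genes did, and 0.00754% of all genes rose and 0% fell. EES and LES libraries overlapped for all 5 and did not overlap for 8.16% of all genes. Without EES replicate 2 the values were -0.19 for Tnp1, -0.33 for Tnp2, -0.11 for Prm1, -0.02 for Prm2 and -0.21 for Prm3. With quantile normalization they were -0.51 for Tnp2 and -0.060 for Prm3, so the sign was not stable. Tnp1 was at 0 there by construction, since that method sets values by rank and Tnp1 had the highest RPKM in each of these libraries.

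Measured from RS to LES, a comparison that shares its RS and LES libraries with those above, all 5 genes rose. Prm1 rose by a log2 fold change of 7.19 ± 0.50 (adjusted p 1.43e-07 in limma) and Prm2 by 6.84 ± 0.51 (1.96e-07). Tnp2 rose by 6.48 ± 0.50 (2.67e-07), Tnp1 by 6.44 ± 0.48 (2.27e-07) and Prm3 by 5.18 ± 0.46 (7.74e-07). With quantile normalization Tnp2 rose by 4.13. Of all genes 17.4% rose and 55.4% fell, the median was -1.43, and 85.7% had no overlap between the groups. After centring on the median gene 4679 rose and 3650 fell, in place of 2303 and 7340. From RS to LES 13 of 13 elongating markers, 7 of 8 Sertoli markers and 3 of 3 erythroid markers rose too, and their part in the result was not tested. Over the 5 stages together the F test passed for all 5 genes, as it did for 97.2% of all genes.

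**Figure D4:**
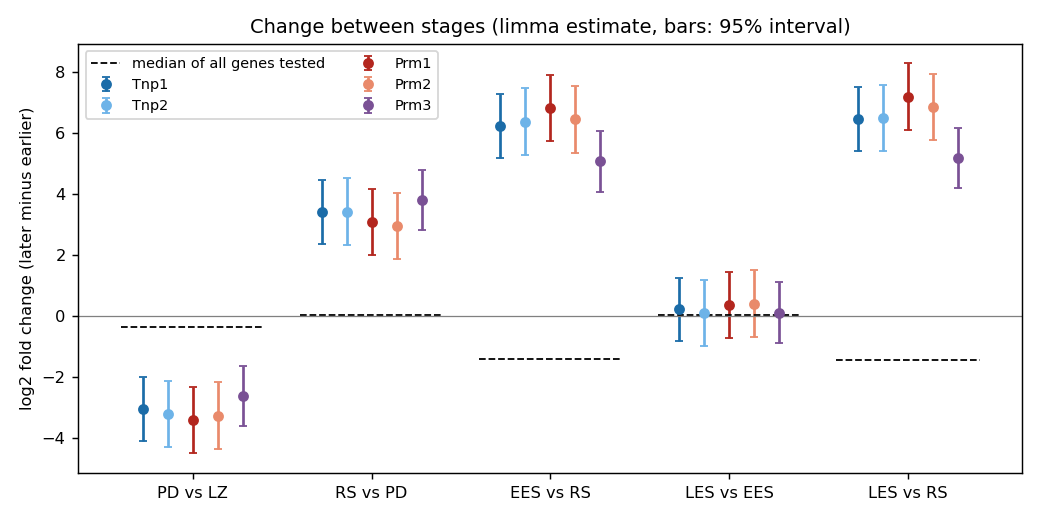
Log2 fold change (later minus earlier stage) of each gene in 5 comparisons, with 95% intervals from limma, and the median of all 13260 genes tested as a dashed line. The genes lie below 0 in PD vs LZ, above 0 in RS vs PD, EES vs RS and LES vs RS, and their intervals include 0 in LES vs EES.

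Although the genes rose together, their proportions differed between RS and the 6 elongating libraries. The RPKM ratio of Prm1 to Tnp1 was 0.566, 0.432 and 0.441 in RS, 0.776, 0.644 and 0.736 in EES and 0.698, 0.842 and 0.872 in LES. All RS libraries lay below all elongating libraries, with a mean log2 difference of -0.67, a 1.59-fold lower ratio. The ratio of Prm3 to Prm1 was 0.203, 0.219 and 0.152 in RS, against 0.0484 to 0.0704 in EES and 0.0463 to 0.0479 in LES, and was 3.68-fold higher in RS. Prm2 to Prm1 was 1.106, 1.59 and 1.303 in RS against 0.935 to 1.105 in the elongating libraries, 1.28-fold higher in RS, with the lowest RS library barely above the highest elongating one. For each of these 3 ratios the two-sided exact permutation test of 3 against 6 libraries gave p = 0.0238, the smallest it can give, and 0.0476 adjusted over 8 ratio tests. The ratio of Tnp2 to Tnp1 was 0.643 to 0.750 in RS and 0.588 to 0.808 in the elongating libraries and did not pass the exact permutation test (log2 difference -0.09, adjusted p = 0.571). Leaving out any 1 library of these groups raised the smallest p the design allows and left the 3 ratios short of the adjusted threshold, with the same direction each time.

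The LZ libraries overlapped the elongating libraries in 3 of the 4 ratios. The ratio of Prm1 to Tnp1 was 0.749, 0.754 and 0.845 in LZ and overlapped the elongating libraries (log2 difference 0.05, adjusted p = 0.690 by the exact permutation test). Prm3 to Prm1 was 0.0704, 0.0573 and 0.0716 in LZ and also overlapped (log2 difference 0.36, adjusted p = 0.0762, exact permutation test). Prm2 to Prm1 was 1.20, 1.34 and 1.34 in LZ, above all elongating libraries and 1.26-fold higher (adjusted p = 0.0476, exact permutation test). That call too was lost when any 1 library of these groups was left out. PD libraries, which entered no ratio test, had ratios of 0.582 to 0.627 for Prm1 to Tnp1 and 0.0941 to 0.133 for Prm3 to Prm1. Tnp2 to Tnp1 was 0.704 to 0.878 in LZ and 0.657 to 0.708 in PD.

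**Figure D5:**
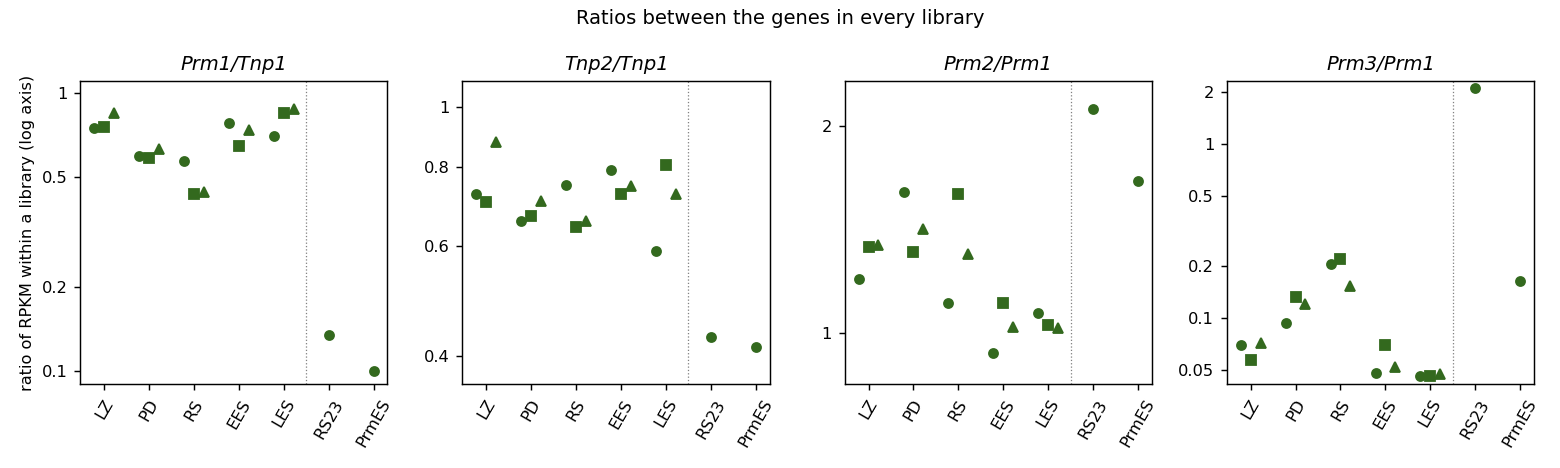
Ratio of the RPKM of a pair of genes within each library (log axis, a different range in each panel), with 1 point per library. RS libraries lie below all EES and LES libraries for Prm1/Tnp1 and above them for Prm3/Prm1, and RS23 and PrmES lie outside the range of the 15 stage libraries for Prm1/Tnp1, Tnp2/Tnp1 and Prm2/Prm1.

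The levels of different genes depend on the exon length behind each RPKM, which is 437 bases for Tnp1, 554 for Tnp2, 571 for Prm1, 894 for Prm2 and 410 for Prm3. These are the exon unions of GENCODE M21. Prm1 and Prm2 each have 2 transcripts there, and the longer gene model lowers their RPKM in every library by the same factor, so ratios between libraries do not depend on it. Ranks between genes do depend on it. Prm2 had more reads than Tnp1 in every EES and LES library, such as 2.27% against 1.49% of all reads in LES replicate 1.

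The single library titled as juvenile round spermatids held less of all 5 genes than any of the 3 RS libraries. RS23 had 9.75 RPKM of Prm1, 20.6 of Prm2, 30.9 of Tnp2, 72.0 of Tnp1 and 20.4 of Prm3. The RS mean was 17.4 times its value for Prm1, 11.1 times for Prm2, 7.98 times for Tnp2, 5.10 times for Tnp1 and 1.54 times for Prm3. Its ratio of Prm3 to Prm1 was 2.09 and that of Prm1 to Tnp1 0.135, so Prm3 was above Prm1 in this library alone among the 17. Of the 14 other elongating markers 10 were also below all 3 RS libraries in RS23. Spem1, a gene of sperm maturation, was at 0.164% of its LES mean in RS23 against 0.803% to 1.44% in RS, and Fscn3 at 0.134% against 0.697% to 1.49%. These were the lowest of the list in RS23. Odf2, the highest, was at 31.6%, above its 19.0% to 30.5% in RS. The list ranged from 0.134% to 31.6% in RS23 with a median of 2.05%, and the 5 genes from 0.0407% to 1.81% with a median of 0.147%. With 1 library there is no test, and age, staining and library series cannot be told apart.

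In the library sorted on Prm1-EGFP, Tnp1 was higher than in any EES or LES library, and Prm1 and Prm2 were lower. PrmES had 43618 RPKM of Tnp1 and 18016 of Tnp2. It had 4379.8 RPKM of Prm1, 7279 of Prm2 and 717 of Prm3. The mean of the 6 elongating libraries was 5.07 times the PrmES value for Prm1, 3.10 times for Prm2, 1.55 times for Prm3, 1.17 times for Tnp2 and 0.663 times for Tnp1. The ratio of Prm1 to Tnp1 was 0.100 and that of Prm2 to Prm1 1.66. Other elongating markers stood at a median of 61.1% of the LES mean, and Sertoli markers summed to 96.2 RPKM against 10.1 to 68.4 in EES and LES. Again 1 library allows no test, and the part of these markers in the difference was not tested. Sorting on the reporter, staining and library series cannot be told apart here.

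The reads given to the gene nearest to Tnp1 moved with those of Tnp1, and the genes beside the protamine cluster did not rise. The lncRNA 1700027A15Rik (chr1:73016036-73025508) starts 137 bases from Tnp1 and was at 17.8, 27.2 and 35.4 RPKM in RS and 2735, 979.6 and 2586 in EES. It rose by a log2 fold change of 6.21 ± 0.48 (adjusted p 2.73e-07 in limma) from RS to EES and fell by 3.11 from LZ to PD (adjusted p 7.43e-05). Whether reads were counted by strand is not given in the sources used here, so reads of overlapping transcripts on opposite strands cannot be told apart. De novo gene MSTRG.525 (chr1:73015110-73025512) covers the span of 1700027A15Rik and also overlaps Tnp1. In EES and LES it was given 105.55% to 107.75% of the reads of the de novo gene on the strand of Tnp1. How many reads of 1700027A15Rik are reads of Tnp1 counted again was not tested. Socs1, a cytokine signalling inhibitor 2399 bases from Tnp2, stayed at 0.652 RPKM or below in the 15 stage libraries, and Rmi2, 38236 bases from Prm1, at 1.17 or below. Both fell short of the level for testing. Clec16a, 43057 bases from Tnp2, was at 4.59 to 6.73 RPKM in RS and 2.01 to 3.14 in EES. It fell by 1.22 ± 0.23 on the log2 scale (adjusted p 0.000318 in limma). Of all genes 54.9% fell there, with a median log2 fold change of -1.42, so its fall was near that of the median gene.

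Across the 15 stage libraries the 5 genes correlated with each other at Pearson's r of 0.989 to 0.9995 on the deposited log2 scale, as a description of libraries that share 5 stages. Of all other tested genes the one most like Tnp1 was 1700034E13Rik (r = 0.9996), followed by Hmgb1-rs17 and the neighbouring 1700027A15Rik. The value of 1700027A15Rik may include reads of Tnp1, as above. Tnp2 was closest to Fscn3, an actin-bundling protein of the testis (r = 0.9994), and then to Hmgb1-rs17 and Oxct2b. Prm1 was closest to 1700012A03Rik (r = 0.9996) and Prm2 to Car2, a carbonic anhydrase (r = 0.9996), and each had the other's closest gene and Ubqlnl as the remaining ones. Prm3 was closest to Hmgb4, a testis chromatin protein (r = 0.9992), 4930571K23Rik and Txndc2, a thioredoxin of spermatids. Hmgb1-rs17 is a related sequence of Hmgb1, so the placing of its reads is uncertain.

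Other factors of the change from histones to protamines were read from a list of 25, of which 23 were tested. From RS to EES 6 rose and 8 fell, against 15.8% and 54.9% of all genes, with a list median of -0.63 on the log2 scale against -1.42 for all genes. The histone variants of spermatids were the largest. H2al2a, a variant known to make nucleosomes accessible to transition proteins, went from 19.5 ± 6.14 to 1339 ± 544 RPKM (log2 fold change 6.05 ± 0.43, adjusted p 1.66e-07 in limma). H1f7, a linker histone of spermatids, went from 34.9 ± 7.46 to 1694 ± 618 RPKM, and H2bl1 from 28.1 ± 7.27 to 1300 ± 425. H2al2a belongs to a family of close copies, so the placing of its reads is uncertain. From LZ to PD 6 rose and 9 fell, shares near the 25.5% and 35.8% of all genes, and from PD to RS 8 rose and 1 fell, against 23.4% and 15.2%. The one that fell in RS was H2bc1, the testis histone H2B, from 1032 ± 427 to 13.1 ± 9.43 RPKM (log2 fold change -6.43 ± 0.69, adjusted p 5.79e-06 in limma). Nutm1, a cofactor of histone hyperacetylation in spermatids, rose in RS by 5.87 ± 0.77 (adjusted p 3.44e-05). From EES to LES 0 of 23 changed, and from RS to LES 7 rose and 8 fell, against 17.4% and 55.4% of all genes. Centred on the median gene, 10 rose and 6 fell from RS to EES, against 4306 and 3715 of all 13260 genes. With the same centring 12 rose and 6 fell from RS to LES, against 4679 and 3650 of all 13260 genes.

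Of 24 transcription regulators of spermatid genes, 7 rose and 11 fell from LZ to PD, where 25.5% and 35.8% of all genes did. From PD to RS 9 rose and 0 fell, against 23.4% and 15.2% of all genes. In RS the largest changes were rises of Rfx1, of the RFX family, from 0.329 ± 0.145 to 11.5 ± 2.67 RPKM, and of Kif17, a kinesin that moves the CREM coactivator out of the nucleus, from 1.58 ± 0.654 to 31.8 ± 6.46. Their log2 fold changes were 5.14 ± 0.35 and 4.38 ± 0.30, with adjusted p of 1.98e-07 and 2.45e-07 in limma. From RS to EES 4 rose and 9 fell, against 15.8% and 54.9% of all genes. Tbp, the TATA-binding protein, went from 15.7 ± 0.660 RPKM in RS to 0.158, 3.18 and 0.464 in the EES libraries. Gtf2b, the general factor TFIIB, went from 105 ± 16.5 RPKM to 2.21, 19.3 and 4.08, and EES replicate 2 was the highest for both. Spz1, a transcription factor of the testis, rose from 156 ± 21.2 RPKM in RS to 3625 ± 210 in LES. The means of Crem itself were 6.83 ± 2.87, 24.9 ± 1.71, 40.2 ± 5.97, 25.1 ± 16.5 and 16.1 ± 1.39 RPKM from LZ to LES. Centred on the median gene, 9 regulators rose and 6 fell from RS to EES, against 4306 and 3715 of all 13260 genes. The balance of the list thus turned with the scaling, as did that of all genes. From RS to LES 4 rose and 11 fell (17.4% and 55.4% of all genes). After centring 9 rose and 7 fell from RS to LES, against 4679 and 3650 of all 13260 genes. From EES to LES 0 of 24 changed.

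Most genes of mRNA storage and translation fell from RS to EES. There 2 of 27 rose and 22 fell, against 15.8% and 54.9% of all genes. The list median was -2.49 on the log2 scale, against -1.42 for all genes. After centring on the median gene 3 rose and 14 fell, against 4306 and 3715 of all 13260 genes. Pabpc6, a poly(A)-binding protein, went from 228 ± 42.6 to 7.47 ± 4.11 RPKM (log2 fold change -5.09 ± 0.58, adjusted p 5.10e-06 in limma). Fxr2, of the fragile X family of RNA-binding proteins, went from 34.6 ± 2.96 to 1.503 ± 1.17 RPKM, and Tdrd6, of the chromatoid body, from 261 ± 48.1 to 5.21, 76.1 and 12.8 in the EES libraries, of which replicate 2 was again the highest. Ybx2, which binds and stores protamine messages, had means of 83.5 ± 56.4, 361 ± 18.7, 359.97 ± 72.3, 615 ± 171 and 717 ± 60.6 RPKM from LZ to LES. Earlier, 11 rose and 5 fell from LZ to PD (25.5% and 35.8% of all genes), where Fmr1 fell by 8.56 ± 0.33 and Dazl, an RNA-binding protein of early germ cells, by 6.06 ± 0.51 on the log2 scale (adjusted p 1.92e-09 and 3.11e-07 in limma). With quantile normalization 7 rose and 10 fell from LZ to PD, while over all genes about as many rose as fell. The balance of this list thus turned with the scaling. From PD to RS 3 rose and 4 fell, against 23.4% and 15.2% of all genes. From EES to LES 0 of 27 changed, and from RS to LES 3 rose and 23 fell, against 17.4% and 55.4%. After centring 3 rose and 12 fell from RS to LES, against 4679 and 3650 of all 13260 genes.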

How the data were processed

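RNA levels came from 17 libraries of sorted mouse testis cells. Trim Galore and STAR are the trimmer and aligner named, with GRCm38 and mm10 as builds, per the submitters' processing notes. A de novo annotation was assembled with StringTie 1.3.4d, per the file headers, and its coordinates are transcript and exon positions, a unit classed as other. The authors deposited log2 values, found here to be log2 of 100 times RPKM plus 1 (a pseudocount of 0.01 RPKM). Multiplied by exon length they gave whole reads for 100% of the de novo values within 0.01 read, and so each library's total. Symbols were matched for 24570 of 24594 gene IDs in RefSeq. Gene IDs, positions and promoters came from GRCm38.p6.

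Genes at 1 RPKM or more in at least 3 of the 15 stage libraries were tested (13260), all 5 members among them, in a linear model of the 15 libraries in limma 3.58.1 (R 4.3.3) with a mean-variance trend and Benjamini-Hochberg adjustment over all genes tested. Fold changes are on the deposited log2 scale. Ratios of RPKM were tested with exact permutation tests (scipy 1.17.1). RS23 and PrmES entered no test. Alternatives changed the pseudocount, filter, scaling, trend, samples and gene table, left out libraries, or added the replicate number as a block.

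The members, gene lists and marker lists were chosen with earlier results of these data known. Named genes are the 5 members, genes within 50 kb, the 3 most similar genes of each, label checks, and up to 3 of the largest changes of a list in each comparison, of which the text prints some. Crem, Ybx2, Spem1, Odf2 and Tex37 were named outside this rule, after their values were seen. In the list of histone replacement factors H3f5 was not matched. Leydig markers summed to at most 6.75 RPKM in any library, spermatogonial markers to 37.4 to 53.7 in LZ and at most 10.9 elsewhere, macrophage markers to at most 28.5 (LES replicate 3) and erythroid markers to at most 20.7 (PrmES). The 7 LZ markers summed to 847 to 1116 RPKM in LZ and at most 131 elsewhere, and the 7 PD markers to 2509 to 2680 in PD but also 2303 to 2678 in RS and 2532 in PrmES, so that sum does not separate PD from RS. The 7 RS markers had a median of 46.9 to 55.0 RPKM in RS, 95.2 in EES replicate 2 and 8.14 or less in the other EES and LES libraries. One of them, Tex37, was at 9.92 to 19.3 RPKM in RS and 491 to 1202 in EES. No column was without a sample.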

Additional observations from a re-analysis of the deposited data

Results flagged for a closer look

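De novo genes annotated on the strand opposite all 5 genes, which the comparisons do not use, were also given reads in the de novo table. De novo gene MSTRG.525 lies opposite Tnp1, and its lowest level in the 6 EES and LES libraries was 2824 RPKM, against a highest RS level of 101 RPKM. MSTRG.9621, opposite Tnp2, had at least 3392 RPKM in the elongating libraries and at most 112 in RS. MSTRG.9624, opposite Prm1, Prm2 and Prm3, had at least 1032 RPKM there and at most 32.3 in RS. In the elongating libraries the reads given to the opposite-strand gene were 105.55% to 107.75% of those of the same-strand gene for Tnp1, 100.62% to 101.02% for Tnp2 and 97.5% to 99.7% for the protamine genes. Reads over all de novo genes summed to as much as 107.8% of the library total (EES replicate 1), so some reads were counted for more than 1 gene. Whether the counting used strand is not given in the sources used here. What part of the opposite-strand levels is reads of the 5 genes counted again was not tested.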

How the results depend on the processing

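The number of the 5 genes called in each comparison, and its direction, was the same under all 24 alternatives run (23 for the F test). In the 4 comparisons where the genes changed, their highest adjusted p over the alternatives was 0.0041 (Prm2, RS vs PD), and the log2 fold changes ranged from 4.547 to 8.263 in EES vs RS and from -5.215 to -2.131 in PD vs LZ. In LES vs EES, where no gene was called under any alternative, the sign turned. Quantile normalization gave -0.51 for Tnp2 and -0.060 for Prm3, and 0 for Tnp1, whose top rank in all EES and LES libraries fixed that value. Without both libraries that stood apart the values were -0.19 for Tnp1, -0.33 for Tnp2, -0.11 for Prm1, -0.022 for Prm2 and -0.21 for Prm3. Leaving out 1 library each gave -0.19 to 0.47 for Tnp1, -0.33 to 0.40 for Tnp2, -0.11 to 0.69 for Prm1, -0.022 to 0.65 for Prm2 and -0.21 to 0.31 for Prm3. The cause was not tested.

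For the ratios, RS minus elongating, the log2 differences without both libraries that stood apart were 0.38 for Prm2/Prm1, 1.97 for Prm3/Prm1 and -0.72 for Prm1/Tnp1. With LES alone as the later group they were 0.35, 2.01 and -0.75, and leaving out 1 library each gave 0.23 to 0.49, 1.77 to 2.04 and -0.80 to -0.60. None of these passed the adjusted threshold. With fewer libraries the smallest p is larger, and the adjusted p also depends on the other ratio tests. For LZ minus elongating, Prm2/Prm1 was 0.32 without both, 0.31 with LES alone and 0.30 to 0.38 with 1 library left out, again short of the threshold. Tnp2/Tnp1 turned to -0.027 without both and ranged from -0.025 to 0.13. Prm1/Tnp1 turned to -0.057 without both and to -0.034 with LES alone, and ranged from -0.010 to 0.086.

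Counts over all genes moved by more than 1.5 times in some settings. Without the filter on low values 8189 genes fell in PD vs LZ (4745 with it), 4912 rose in RS vs PD (3107), 4053 rose in LES vs RS (2303) and 19692 differed over the 5 stages (12895). In RS vs PD 1156 fell with a pseudocount of 1 RPKM and 3166 with quantile normalization (2017). Quantile normalization gave 3382 risen and 4219 fallen in EES vs RS and 3640 and 4581 in LES vs RS, where median centring gave 4679 and 3650 in place of 2303 and 7340. In LES vs EES 0 to 225 genes rose and 0 to 4 fell. Same-numbered libraries of different stages correlated at -0.25 to 0.24 in their deviations from the stage means, and differently numbered ones at -0.29 to 0.31. Between PD and RS these ranges were 0.025 to 0.24 and -0.19 to 0.068, and between LZ and EES -0.11 to -0.032 and -0.038 to 0.099. With 3 libraries per stage this cannot settle whether the numbers pair the samples. With the replicate number as a block all 5 genes kept their calls, and 0 genes rose in LES vs EES in place of 1. In the de novo table only Tnp1 and Tnp2 had genes of their own, so no count of 5 exists there. The share of promoters with each motif was lower in the 100-base window, at 5.567% for TATAAA, 2.197% for TATATA, 5.878% for AGGTCA, 18.87% for CCAAT and 1.155% for TGACGTCA. Depth limited no value of the 5 genes to fewer than 58 reads, and the width of the intervals came from the spread pooled over the 15 stage libraries.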
